A study of Mus musculus with 45 samples.

Results

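Noncoding transcripts with new splice sites are spliced RNAs with at least 1 splice donor or acceptor absent from the reference annotation and with no predicted coding sequence in the authors' classification. They were chosen as the transcripts of the deposited TPM table that the unfiltered classification calls novel_not_in_catalog and non_coding. The rule kept 18560 of 276608 transcripts (6.71%), spread over 5308 of 23575 genes, and used no expression value. Coding transcripts with new splice sites (105046) and full-splice matches (56793), whose junctions all follow an annotated transcript, served as comparisons. The chosen transcripts are called members below.

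The libraries came from mouse cells read end to end on nanopore flow cells while neural progenitors were turned into induced pluripotent stem cells. All progenitors derive, per the labels, from the stem cell line O4G, which carries a GFP reporter of Oct4. They were wild type (WT) or held doxycycline-inducible factors, labelled OKMS-Luciferase-AS or OKS-Luciferase-AS and called OKMS and OKS here. There were 22 R9 libraries (direct cDNA) and 23 R10 libraries (PCR cDNA). Untreated progenitors in progenitor medium gave 4 libraries in each chemistry, 2 WT, 1 OKMS and 1 OKS. Stem cells of WT genotype in 2i-LIF gave 2 R9 libraries (O4G, R1) and 7 R10 libraries (2 O4G, 2 R1 clone 3, 3 R1). As a control without factors, WT progenitors were held in FBS-LIF plus doxycycline for 2 days (1 R9 library, 2 R10 libraries). The OKMS and OKS systems were sampled under FBS-LIF plus doxycycline with 1 library each per day at days 2, 4, 6, 10, 14 and 20 in R9. In R10 OKMS was sampled at days 2, 4, 6, 10 and 18 and OKS at days 2, 6 and 18. Late cultures in 2i-LIF, for which the labels list no doxycycline, gave 3 R9 libraries (days 14 and 20) and 2 R10 libraries (day 18). For the R9 libraries the labels put the change from FBS-LIF plus doxycycline at day 6, and for the R10 libraries they give no day of change. The labels do not say whether libraries of a group came from separate cultures, so p-values measure the spread between these libraries, which may be technical.

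A splice donor is the start of an intron, almost always the bases GT, and an acceptor is its end, almost always AG. Use of another donor or acceptor can shift or cut the reading frame, and many such RNAs are known substrates of nonsense-mediated decay. Long noncoding RNA genes, among them hosts of small nucleolar RNAs, are known for loosely chosen splice sites, and reverse transcription can also join distant parts of an RNA without splicing.

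The printed sites were chosen because they belong to the transcripts with the widest differences or the highest levels. Each run holds 15 bases on either side of the new exon end, read 5′ to 3′ on the gene's strand from GENCODE M21 transcripts (GRCm38). Capitals mark the GT that opens the new intron or the AG that closes it.
Serpine2 donor, chr1:79858587-79858616, minus strand: gtgcgggctgcacgcGTcaccgtcaccgcc
Serpine2 acceptor, chr1:79794817-79794846, minus strand: tcggggctgtgtcAGaagaaagggctggat
Scarb1 donor, chr5:125340922-125340951, minus strand: gcctccgtcacctctGTctccgtctccttc
Otub1 donor, chr19:7198583-7198612, minus strand: ggaacttgaccagagGTctcaagccaccca
Otub1 acceptor, chr19:7198444-7198473, minus strand: aggaggctggcctAGagtgggtggagcagc
Slc43a2 donor, chr11:75577146-75577175, plus strand: ccaggctgtgtgtgtGTgtgtgtgtgtgtg
Ung donor, chr5:114137255-114137284, plus strand: tgaatcagaacctgaGTggcctcgtcttcc
Rae1 donor, chr2:173012096-173012125, plus strand: cctccaaatccgtaaGTgactcggggcctg
Gas5 donor, chr1:161036842-161036871, plus strand: cagtttgaaaggtaaGTattgaaaaacact
Rps27a donor, chr11:29547187-29547216, minus strand: ggataaggaaggcaaGTaaagtttgtcact
S100a6 acceptor, chr3:90613145-90613174, plus strand: gctggccactataAGgccggccagactgcg
Scd2 donor, chr19:44294093-44294122, plus strand: gactcctggacaccgGTggctgcaagctgc

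The Rae1, Gas5 and Rps27a donors lie exactly 4 bases downstream of an annotated donor, and 920 of 12076 distinct new donors did so (7.62%). By contrast 9 lay 3 bases downstream, 61 lay 5 downstream and 23 lay 4 upstream. Relative to the nearest annotated donor, where a negative value is upstream, other printed donors lie at -91 bases in Serpine2, -180 in Scarb1, -62 in Ung and -304 in Scd2. The Otub1 and Slc43a2 donors lie downstream, at 774 and 5280 bases. Across the class the median distance to the nearest annotated site was 154 bases for donors and 223 bases for the 11231 distinct acceptors. Bases could be read for the 6112 donors and 6927 acceptors inside annotated exons. Of these donors 92% opened with GT and 7.95% with GC, and 99.9% of the acceptors closed with AG.

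Some new introns lie wholly inside 1 annotated exon, as the 139-base Otub1 intron and the 90-base Slc43a2 intron do. Such introns occurred in 2545 of the transcripts (13.7%), against 12.5% of coding transcripts with new sites. They made 2312 distinct introns with a median length of 198 bases. Repeats at the intron ends, a feature of template switching by reverse transcriptase, were absent from 1175 of them (50.8%) and reached 8 or more bases in 8. They spanned 6 bases in the Slc43a2 intron and 2 in the Otub1 intron. The classification marked none of the 18560 transcripts as template switching and all their junctions as canonical, and all 18560 had a polyA motif. The TPM table holds 276608 of the 1883390 classified transcripts. The part of that selection in these values, and in the GT and AG shares above, was not tested.

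The transcripts were short. Their median length was 688 bases, against 1648 bases for coding transcripts with new sites and 1885 bases for full-splice matches. Transcripts of 2 exons made up 23.3% of the class, 2.02% of the coding new-site transcripts and 9.89% of the full-splice matches. All splice junctions were new in 14.2%, against 1.08% of the coding counterparts. A start inside a CAGE peak, the mark of capped RNA ends, was recorded for 78.1%, against 83.7% and 91.0%.

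Most of them belonged to protein-coding genes. Such genes held 15762 of the transcripts (84.9%) and 89.9% of their mean TPM, while lincRNA genes held 1132 (6.1%) and 2.16%. Malat1, a nuclear long noncoding RNA, held the most in a single gene (316). Per gene the median was 2, and 365 genes held 10 or more. Reads were few, with a median of 10 over the 45 libraries and a range of 3 to 75096. The 10 highest transcripts carried 26.2% of the class's mean TPM and the 100 highest 51.8%.

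The name noncoding did not match the sequence for a minority of the transcripts that held much of the signal. An intact annotated coding sequence was present in 967 of them (5.21%), which carried 32.1% of the class's TPM. The label was also common among full-splice matches, grouped by the complete coding sequence of the annotated transcript they match. It was given to 397 of 521 where that sequence spans 1 to 200 bases (76.2%), and to 922 of 1520 with 201 to 300 bases (60.7%). Whether the ends of these full-splice matches hold all of that sequence was not checked. From 301 to 350 bases it was given to 41 of 883 (4.64%), and above 1000 bases to 274 of 22868 (1.2%). The plot of label against coding length shows this step near 300 bases. Results below therefore separate transcripts with an intact coding sequence where it matters.

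**Figure D1:**
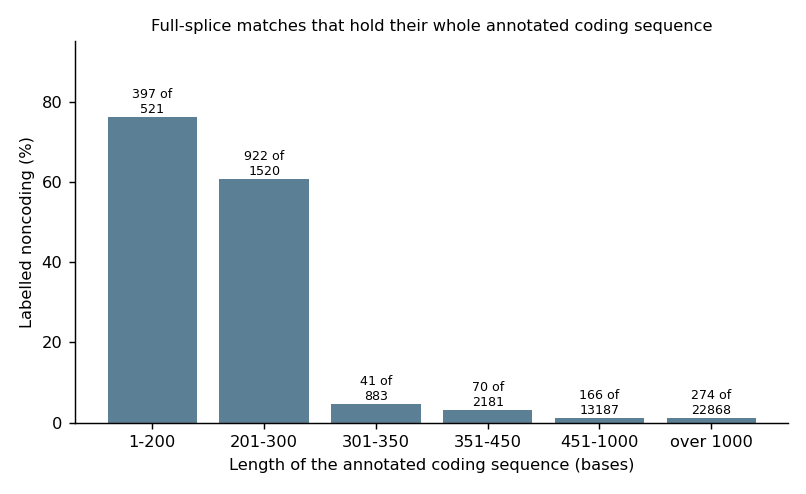
Bars give the share of full-splice matches that the classification calls noncoding (y axis, %), with counts above each bar. The x axis is the length in bases of the complete coding sequence of the annotated transcript they match. The panel title says they hold it whole, which was not checked. The share falls from 76.2% and 60.7% in the shortest classes to 4.64% at 301 to 350 bases and 1.2% above 1000 bases.

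Among the 10 transcripts with the highest mean TPM over all libraries, 8 held an intact short coding sequence. They came from Rps21 (mean 2955 TPM), a ribosomal protein, Cox6b1 (2564 TPM), a subunit of cytochrome c oxidase, Uqcr10 (2503 TPM) and Uqcr11 (1678 TPM), subunits of respiratory complex III, S100a6 (2361 TPM), a calcium-binding protein, Selenow (1403 TPM), a selenoprotein, Sem1 (1396 TPM), a proteasome subunit, and Tomm6 (1002 TPM), of the mitochondrial import complex. Their coding sequences span 249 bases in Rps21, 258 in Cox6b1 and 192 in Uqcr10. The other 2 were the 2-exon Serpine2 transcript (mean 2567 TPM) and Gas5.G2868.62 (mean 1224 TPM), a 10-exon isoform of the noncoding snoRNA host Gas5.

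The cell labels were checked on gene CPM. Summed over 6 pluripotency markers, the 7 R10 stem cell libraries reached 10365 to 12906 CPM and the 4 progenitor libraries 15.4 to 26.3 CPM. Progenitor markers summed to 4009 to 5248 CPM in progenitors and 4.41 to 38.5 CPM in stem cells, with Olig2 at 0 in every stem cell library. Astrocyte markers summed to 1193 to 1568 CPM in untreated R10 progenitors and 8025 to 8331 CPM in WT progenitors after 2 days in FBS-LIF. Their part in the results on that medium was not tested. Depth ran from 447783 to 1390188 reads on named genes in R9 and from 566547 to 4236442 in R10, and the listed transcripts held 38.0% to 52.9% of them.

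Stem cells gave a smaller share of their TPM to noncoding new-site transcripts than progenitors in R10. In bulk libraries such as these, fewer cells with a transcript and less of it per cell cannot be told apart. The share in the 7 stem cell libraries had a lowest value of 5.51%, a median of 5.62% and a highest value of 6.63%. In the progenitors it was 7.86% and 8.16% (WT), 9.54% (OKS) and 10.2% (OKMS). The arms did not overlap, and the means differed by -3.15 percentage points (5.78% ± 0.394, SD, n = 7, against 8.93% ± 1.1, n = 4; exact permutation p = 0.00303, the smallest possible here, adjusted p = 0.0121 over 4 tests). A single 2-exon transcript, Serpine2.G1307.409, made up 0.955% to 2.05% of TPM in these progenitors and 0% in the stem cells. Without it the difference was -1.66 points (exact permutation, adjusted p = 0.0121), with 6.91% to 8.11% in the progenitors and the arms still apart. In R9 the stem cells had 8.47% and 9.54% and the progenitors 8.99%, 9.1%, 9.1% and 11.0%, which overlap (difference -0.534, exact permutation p = 0.533, smallest possible 0.0667, adjusted p = 0.711). The R9 difference was 0.158 without Serpine2.G1307.409, -0.000645 without the O4G stem cell library, -0.0613 without the OKS progenitors and -1.07 without the R1 stem cell library.

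The share was then split by kind. Transcripts of 2 exons took 2.84% to 4.76% of TPM in the R10 progenitors and 1.44% to 1.61% in the stem cells. Without Serpine2.G1307.409 the progenitor range was 1.85% to 2.71%. Transcripts with an intact coding sequence took 2.32% to 2.61% and 1.8% to 2.37%. R10 stem cell libraries also differed in another class: incomplete splice matches took 10.5% in the R1 library with replicate number 3, 14.6% to 15.6% in the other 6 and 7.95% to 9.33% in the progenitors. That R1 library, whose label lacks the n number of the other 6, also had the 6.63% share, and its difference from the WT progenitors was -1.38 points (exact permutation, adjusted p = 0.667). With 3 libraries the smallest possible unadjusted p is 0.333, so this test could not pass. No progenitor label carries an n number, so for those 6 libraries cell state and library set cannot be told apart. The R10 libraries of day 18, in either medium, had 5.33% to 6.0% of TPM in the class. Incomplete splice matches took 16.4% to 20.3% there. The part of these library sets in the share was not tested.

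**Figure D2:**
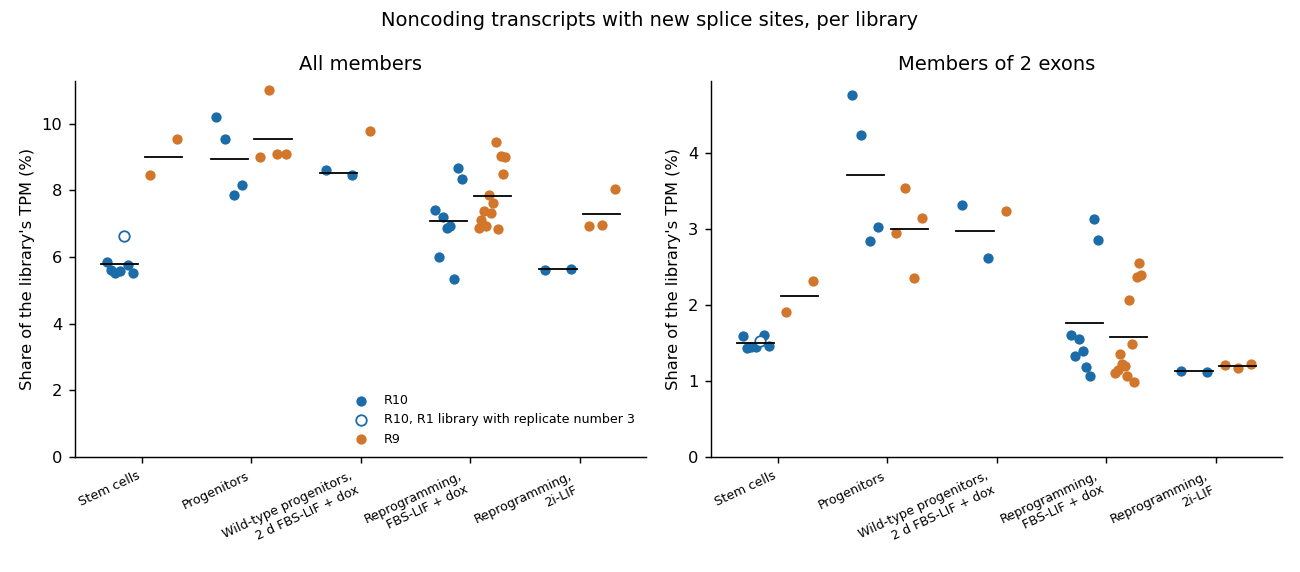
Points are libraries and lines are means. The left panel gives the share of a library's TPM in all noncoding new-site transcripts (y axis, %) and the right panel the share in those of 2 exons, by cell group (x axis) and chemistry (colour). The 4 R10 progenitor libraries sit between 7.86% and 10.2%, above the 7 stem cell libraries at 5.51% to 6.63%, while the R9 arms overlap.

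Transcript by transcript, members were called in both directions, and how their share of calls stood against that of all transcripts varied with the chemistry, the tool and the reads behind the transcript. In R10, 2108 of 5012 tested members were called (42.1%, 1037 higher and 1071 lower in stem cells), against 39.8% of all 58952 transcripts tested (limma on log2(TPM + 1), Benjamini-Hochberg adjusted p under 0.05, log2 difference of at least 1). With edgeR on recovered reads 1989 were called (39.7%), against 43.4% of all. The median log2 difference was -0.11 for members and 0.17 over all transcripts, a shift that quantile normalization lowered to 0.01. Of tested members with 20 or more reads 55.2% were called, against 44.0% of all such transcripts, and in R9 32.8% against 18.9%. The part of read depth in these shares was not tested.

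Narrowed to WT progenitors and the R1 library with replicate number 3, 1763 of 8215 members were called (21.5%, 1661 higher and 102 lower), against 13.9% of all transcripts (10664 higher and 578 lower). The lone stem cell library is assumed to vary like the progenitors, and 1927 of the 8215 members reached 1 TPM in no progenitor library and so were tested only through it. Calls in R9 numbered 1175 of 5989 members (19.6%), 842 of them higher and 333 lower, against a background of 13.4% over all transcripts. edgeR called 236 of them (3.94%, 104 higher and 132 lower), against 2.45%. Median centring gave 723 (438 higher and 285 lower). Leaving out the O4G or the R1 stem cell library again left a lone library in that arm. Calls were then mostly higher, in members and over all transcripts alike. Of the R10 calls 1440 were tested in R9, and 1243 had the same sign there (86.3%). Both chemistries called 667 (31.6% of the R10 calls and 56.8% of the R9 calls), 661 with the same sign.

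Named transcripts follow a rule on the widest called differences between arms that do not overlap. Serpine2.G1307.409 was the widest. Serpine2 encodes protease nexin-1, a secreted inhibitor of serine proteases. The transcript has 2 exons and 546 bases, joined across an intron of 63770 bases by the Serpine2 donor and acceptor printed above. It was listed at 0 TPM in all 7 R10 stem cell libraries and at 9429 and 11635 (WT), 17491 (OKS) and 20238 TPM (OKMS) in progenitors. The log2 difference was -13.78 ± 0.21 (SE; limma, Benjamini-Hochberg adjusted p = 2.14e-13). For this and the following transcripts at 0 in an arm, that value depends on the pseudocount of 1 and is no bound. Such transcripts entered the test through the other arm alone and were named as the widest calls, so their p-values describe the choice and are no further support for it. The R9 stem cell libraries both listed 0, and the 4 R9 progenitor libraries ran from 3018 to 9383 TPM. The whole gene fell too, to a mean of 22.8 CPM from 7632 CPM, and the transcript held 51.0% of the gene's reads in progenitors.

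Map3k7.G35036.112 comes from the gene of the kinase TAK1. It stood at 529, 583, 670 and 679 TPM in the progenitors and at 0 in all 7 stem cell libraries (log2 difference -9.26 ± 0.18, limma adjusted p = 1.19e-12). It held 93.7% of the gene's reads in progenitors, where the gene measured 143 CPM, against 17.2 CPM in stem cells.

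Other transcripts were at 0 in all 7 stem cell libraries although their genes had reads there. Their zeros also fell in libraries of other conditions, as described below under presence and absence. Otub1.G26031.6, from the gene of a deubiquitinase, had 267, 288, 458 and 505 TPM in progenitors and 0 in stem cells (-8.52 ± 0.22, limma adjusted p = 1.8e-11). Otub1 itself measured 241 CPM in progenitors and 116 CPM in stem cells. Rae1.G31561.181, from the gene of an mRNA export factor, had 173, 173, 248 and 300 TPM against 0 (-7.77 ± 0.22, limma adjusted p = 2.38e-11). The Rae1 gene measured 122 CPM in progenitors and 116 CPM in stem cells (limma adjusted p = 0.599). Eif4g2.G47797.55, from a translation initiation factor gene, had 207, 214, 250 and 319 TPM against 0, with the gene at 726 CPM in progenitors and 857 CPM in stem cells. Hmgcs1.G15212.44, from the gene of HMG-CoA synthase in cholesterol synthesis, had 170, 220, 398 and 501 TPM against 0. The gene also fell, to 188 CPM from 959 CPM.

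Among transcripts higher in stem cells, some came from genes with few progenitor reads and others from genes read in both arms. Fam25c.G15839.20, of 4 exons and with an intact coding sequence of 267 bases, had a lowest value of 299, a median of 569 and a highest value of 1037 TPM in stem cells. In progenitors it was at 0 in 3 libraries and at 0.949 TPM in a WT library (8.93 ± 0.32, limma adjusted p = 2.28e-10), and the gene measured 700 CPM against 0.552 CPM. Ung.G40540.111, from the gene of uracil DNA glycosylase, ranged from 170 to 543 TPM (median 445) against 0 (8.65 ± 0.27, limma adjusted p = 6.59e-11), with the gene at 251 CPM against 115 CPM. Tubb5.G22793.601, from a beta-tubulin gene, ranged from 154 to 204 TPM (median 189) against 0, while the gene measured 991 CPM against 846 CPM.

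Txn1.G35623.141, from the thioredoxin gene, ranged from 34.8 to 203 TPM against 0 and held 1.91% of the gene's reads in stem cells. Cdk2ap2.G25790.35 ranged from 72.5 to 451 TPM against 0 with the gene at 129 CPM and 124 CPM. For both, and for Ung and Pias2, the R1 library with replicate number 3 was the extreme of the 7 stem cell libraries. Pias2.G25514.318, from the gene of a SUMO ligase, ranged from 30.2 to 383 TPM against 0.

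**Figure D3:**
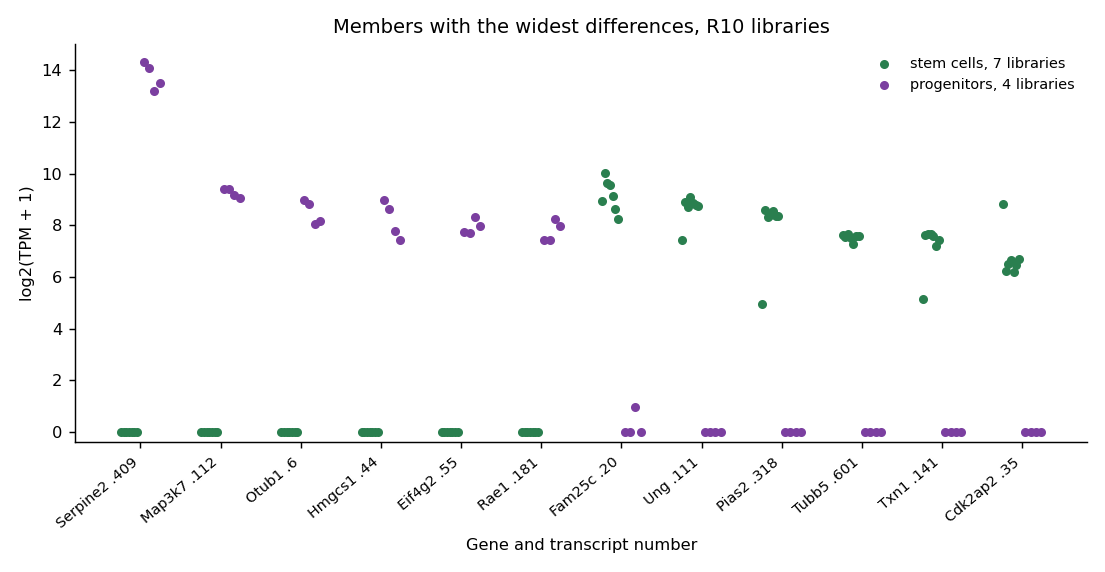
Points give log2(TPM + 1) (y axis) in each R10 stem cell and progenitor library for the 12 named transcripts (x axis, gene and transcript number). The 6 columns on the left are at 0 in all 7 stem cell libraries, and those on the right are at 0 in the progenitors except Fam25c, at 0.949 TPM in 1 library.

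Member calls and gene calls were set side by side. Of the 4745 tested genes that hold a member, 1977 were called on CPM (41.7%, 818 higher and 1159 lower), against 45.8% of all genes tested (limma). Of the 1037 members higher in stem cells, the gene was higher for 563 (54.3%), not called for 422 (40.7%) and lower for 36 (3.47%). Of the 1071 lower members, the gene was lower for 526 (49.1%), not called for 514 (48%) and higher for 16. Gene CPM includes the member's own reads, so member and gene calls are not independent. No such split over all called transcripts is given here, so these shares need not be particular to members.

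The share of a gene's TPM in members gives their weight among its listed transcripts. These hold only part of the gene's reads, so a changed share need not be a changed choice of isoform. Among 2807 genes with at least 5 TPM in every R10 library of the fit, 269 changed (9.58%), by at least 10 percentage points, with 185 losing and 84 gaining share in stem cells. In R9 the balance of directions was the other way, with 66 gains and 42 losses. The WT progenitors against the R1 library with replicate number 3 leave that library alone in its arm, so that fit cannot show the balance. In R10 the same test on coding new-site transcripts called 10.4% of genes, with 145 gains and 351 losses. Of the 269 genes, 188 were not called on gene CPM, and 192 had arms that did not overlap (71.4%, against 12.1% of all 2807). Called genes were chosen for their difference, so that contrast is no further support. In R9, 235 were tested, 174 had the same sign and 50 were called with the same sign. Taken over all reads of the gene instead of its listed transcripts, 91 genes were called (33 gains and 58 losses), 77 of them among the 269. Over all reads, 4 of the 16 genes named next (Sec24c, Rac1, Ap3d1 and Srebf1) changed by less than 10 points and were not called.

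In Rae1 the share fell while the gene was not called. Its member held 76.5% (OKS), 77.3% (OKMS), 82.6% and 83.1% (WT) of the gene's TPM in R10 progenitors and 0% in each stem cell library (difference -79.8 ± 1.2, limma adjusted p = 1.32e-11). Over all reads of the gene it held 45.1%. In R9 progenitors the share was 33.2% to 61.7%. Sec24c, a coat protein of export vesicles, went from 84.7% to 93.7% in progenitors to 0%, but only 8.73% of all the gene's reads lay on the member. Ascc2 went from 82.1% to 88.4% to 0%, with 43.4% of all reads on the member. Hdgf, a growth factor, held 69.5% to 88.5% in progenitors and 0% to 15.1% in stem cells (-77.7 ± 3.92, limma adjusted p = 3.98e-07) with the gene not called (131 CPM in stem cells, 104 CPM in progenitors), and over all reads the difference was -13.1 points. Otub1 changed by -73.7 points, or -48.1 over all reads. Rac1, a small GTPase, and Ap3d1, an adaptor subunit, differed by -74.0 and -73.7 points of listed TPM, but over all reads by only -9.82 and -9.85. For Rac1 the R9 difference was -25.5 (limma adjusted p = 0.157).

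Gains were led by Ung, at 77.3% to 92.3% in stem cells and 0% in progenitors (88.3 ± 2.54, limma adjusted p = 3.19e-09). Over all reads of the gene the share was 41.7%. Cpne3, a phospholipid-binding copine, went from 0% to between 54.5% and 73.8% (gain 64.4 ± 3.68, or 22.3 over all reads) with the gene at 70.2 CPM in stem cells and 62.8 CPM in progenitors (limma adjusted p = 0.549). Prpf39, a splicing factor, and Kat2a, the histone acetyltransferase Gcn5, gained 64.0 and 62.2 points, or 21.9 and 13.2 over all reads. Kat2a itself measured 46.8 CPM and 45.6 CPM (limma adjusted p = 0.945). Gm26881, an antisense noncoding gene, rose from 17.1% to 31.6% in progenitors to 69.2% to 100% in stem cells. Its total was low, on average 14.0 TPM in stem cells and 27.2 TPM in progenitors. Dym and Chd3, a chromatin remodeller, gained 61.2 and 50.1 points, or 34.6 and 28.2 over all reads, and Chd3 was not called in R9 (29.4, limma adjusted p = 0.586). Srebf1, a regulator of lipid synthesis, gained 45.0 points of listed TPM but only 2.63 over all reads.

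Genes dominated by members, with over 50% of the gene's listed TPM in every library of an arm, were 134 of 3173 in R10 stem cells (4.22%) and 215 of 3467 in R10 progenitors (6.2%). In R9 they were 313 of 3458 (9.05%) and 195 of 3347 (5.83%). These arms hold 7, 4, 2 and 4 libraries, and a demand on every library is harder to meet in the larger arm, so the arms were also compared on their mean share over 50%, in genes at 5 TPM or more in every library of both. On that count 136 of 2807 genes were dominated in R10 stem cells (4.85%) and 172 in R10 progenitors (6.13%), 107 of them in both, 29 in stem cells alone and 65 in progenitors alone. In R9 the counts were 246 (8.54%) and 194 (6.74%) of 2879. No test was made of these counts. The median share per gene was 1.85% in R10 stem cells and 2.54% in R10 progenitors, but 3.12% in R9 stem cells and 3.06% in R9 progenitors. Among genes dominated in every library, the leading member had 2 exons and no intact coding sequence in 117 of 215 progenitor genes and 48 of 134 stem cell genes in R10. In R9 it did in 95 of 195 progenitor genes and 122 of 313 stem cell genes.

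The highest dominated genes were of several kinds. Short coding genes led by a member with an intact coding sequence were dominated in both arms, among them Uqcr10 at 98.1% ± 0.488 (SD, n = 7) in stem cells and 96.6% in progenitors, Uqcr11 at 98.5% and 97.3%, Sem1 at 94.6% and 90.4%, and Tomm6 at 94.2% and 92.4%. In other coding genes the leading member has 4 or 5 exons and no intact coding sequence. Rps27a, a fusion of ubiquitin and a ribosomal protein, was at 97.2% and 97.5%, led by the member with the Rps27a donor printed above. Hmgb2, a chromatin protein, was at 55.1% in stem cells and 60.6% in progenitors, led by a member of 387 bases. The noncoding Gas5 was at 89.9% and 89.8%. Transcripts of 2 exons led in Serpine2 (89.4% in progenitors, 0% in stem cells), Scarb1, the HDL receptor (85.0% and 68.4%), and Pabpc1, the poly(A)-binding protein (79.3% in stem cells, 67.4% in progenitors). The Pabpc1 member has 268 bases, and the gene's total TPM was 2579 in stem cells and 335 in progenitors. All these shares are of listed TPM and need not hold over all reads of a gene. Over all reads, in the libraries of any condition where it had reads, the Pabpc1 member held only 12.8% of its gene. The Scarb1 member held 42.6% on that count.

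Genes of known function were grouped by lists chosen with earlier results known. Of 25 pluripotency genes 12 held 44 members, and 23 of the 24 tested in R10 were higher in stem cells and none lower, against 39.8% called over all transcripts. Of these 24, 23 reached 1 TPM in no progenitor library, so they were tested only through the stem cell arm and the count shows no more than that. Zfp42.G49708.195, from the gene of the pluripotency factor Rex1, had 60.4 to 143 TPM in stem cells and 0 to 0.787 TPM in progenitors (6.39 ± 0.26, limma adjusted p = 5.16e-10). Dppa5a.G53951.177 had 20.5 to 54.8 TPM against 0. These genes differ as a whole between the arms, so the count describes the host genes as much as the members. Of 15 tested members of neural progenitor genes 13 were lower and none higher in R10, and 12 of the 15 reached 1 TPM in no stem cell library. In R9, 2 of 32 were lower and none higher (6.25%, against 13.4% over all transcripts), and none of the 32 reached 1 TPM in a stem cell library. Olig2.G21273.57, from the oligodendrocyte lineage factor gene, had 15 to 21 TPM in progenitors and 0 in stem cells (-4.19 ± 0.21, limma adjusted p = 3.98e-09).

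Splicing regulators, many known for noncoding isoforms, gave 7 higher and 9 lower of 64 tested (25%, against 39.8% over all transcripts). Ptbp1.G5275.1477, from the polypyrimidine tract-binding protein gene, had 180 to 403 TPM in stem cells and 72.2 to 177 TPM in progenitors (1.55 ± 0.26, limma adjusted p = 0.000287), without overlap. Hnrnpl.G45879.712 had 11.9 to 510 TPM against 140 to 477 TPM, which overlap (-2.63 ± 0.79, limma adjusted p = 0.0146). Genes of RNA decay gave 4 higher and 1 lower of 14 (35.7%, against the same 39.8%), and these 5 were below 1 TPM in every library of the other arm. Upf1.G50143.5, from the central helicase of nonsense-mediated decay, had 18 to 162 TPM in stem cells and 0 in progenitors (5.15 ± 0.47, limma adjusted p = 1.32e-06). The gene measured 83.2 CPM in stem cells and 166 CPM in progenitors. This transcript was at 0 in 11 libraries where 20 or more reads were expected, all R10 progenitors among them. The Ptbp1 and Hnrnpl transcripts also had such zeros, in reprogramming libraries. The pattern is described below under presence and absence.

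Hosts of small nucleolar RNAs gave 18 higher and 6 lower of 169 (14.2%, against 39.8% over all transcripts), and 111 of the 169 were isoforms of Gas5. Gas5.G2868.62, the most abundant, had 753 to 1466 TPM in stem cells and 1370 to 2207 TPM in progenitors and was not called (-0.54 ± 0.18), while Gas5.G2868.53 had 88.5 to 207 against 306 to 582 TPM (-1.32 ± 0.25, limma adjusted p = 0.000714). Long noncoding RNAs gave 12 higher and 12 lower of 48 (50%), with 29 of the 48 from Malat1 (0 higher and 7 lower). Of these calls 10 of the 12 higher and 5 of the 12 lower members reached 1 TPM in no library of the other arm. Malat1.G25967.3136 had 0 to 8.35 TPM in stem cells and 23.2 to 96.9 TPM in progenitors (-4.7 ± 0.57, limma adjusted p = 2.04e-05), with the gene at 1855 CPM and 4145 CPM. Members of DNA methylation genes were not tested, since none of the 3 reached 1 TPM in 4 libraries.

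WT progenitors moved to FBS-LIF plus doxycycline for 2 days show the medium and the drug without factors. In R10, 1359 of 5554 members were called (24.5%, 675 higher and 684 lower), against 15.7% of all transcripts, with 2 libraries in each arm (limma). edgeR called 198 (3.56%, 81 higher and 117 lower), against 2.87%. Median centring gave 473 (185 higher and 288 lower), and leaving out either untreated library, replicate 2 or 3, left 0 limma calls, with 2185 and 2447 at an unadjusted p under 0.05. Leaving out treated replicate 2 or 3 gave 1676 (1590 higher and 86 lower) and 1830 (1719 higher and 111 lower), a balance that all transcripts shared there (9233 higher and 464 lower, and 13087 higher and 738 lower). In these 4 fits the lone library of an arm is assumed to vary like the other arm. With the shared replicate number as a block the count was 2091.

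Scarb1.G41104.46, a 2-exon transcript that spans 63390 bases of intron, had 1218 and 1351 TPM in untreated cells and 0 in both treated libraries (-10.33 ± 0.22, limma adjusted p = 0.00713). As in the stem cell comparison, transcripts at 0 in an arm were tested through the other arm alone and named for their wide difference. Those of Scarb1, Etv4, Ywhab, Otub1, Eif4g2 and Eif4ebp1 are among the transcripts described below under presence and absence. Their zeros also fell in libraries of other conditions where 20 or more reads were expected. The Scarb1 gene fell to 65.1 CPM from 713 CPM. Etv4.G9492.16, from an FGF-responsive transcription factor gene, had 432 and 521 TPM against 0. Ywhab.G31210.265, from a 14-3-3 protein gene, had 342 and 439 TPM against 0 (-8.6 ± 0.27, limma adjusted p = 0.00893), and it held 44.6% of the gene's reads while the gene measured 471 CPM treated and 585 CPM untreated. Otub1.G26031.6 had 267 and 288 TPM against 0 with the gene at 266 CPM treated and 214 CPM untreated. Eif4g2.G47797.55 and Eif4ebp1.G49443.213, from the gene of a translational repressor, were also at 0 after treatment.

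Slc43a2.G8244.473, from the gene of the amino acid transporter LAT4, had 1232 and 1286 TPM after treatment and 0 before (10.3 ± 0.22, limma adjusted p = 0.00713), with the gene at 454 CPM against 15.5 CPM. Its 90-base intron begins inside a run of GT repeats, as the Slc43a2 donor printed above shows. Qsox1.G2740.8, from a sulfhydryl oxidase gene, had 461 and 542 TPM against 0 and held 57.4% of the gene's reads, with the gene at 189 CPM treated and 145 CPM untreated. Ctsl.G14135.414, from the gene of the lysosomal protease cathepsin L, had 437 and 763 TPM against 0, and Mlc1.G18979.123, from an astrocyte membrane protein gene, had 433 and 450 TPM against 0. S100g.G57027.2, from the calbindin-D9k gene, had 898 and 1041 TPM against 1.14 and 1.3 TPM. Fbxo2.G38001.114 had 193 and 268 TPM against 0 with the gene at 670 CPM and 2.31 CPM. The Slc43a2, Qsox1, Ctsl and Mlc1 transcripts are also among those described below under presence and absence. In both untreated libraries 20 or more of their reads were expected, and other conditions had such zeros too.

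Members from Malat1 were called higher after treatment in 54 of 185 tested and lower in none (29.2%, against 15.7% over all transcripts). Of the 185, 103 reached 1 TPM in no untreated library and were tested only through the treated arm, 52 of the 54 among them, so the direction was largely fixed by the filter. The whole Malat1 gene measured 42990 CPM treated and 4937 CPM untreated. The 19 tested members of the other long noncoding RNA genes gave 0 higher and 4 lower. Hosts of small nucleolar RNAs gave 3 higher and 17 lower of 136 (14.7%, against the same 15.7%). Splicing regulators gave 4 higher and 13 lower of 59 (28.8%), and the 4 higher and 12 of the 13 lower reached 1 TPM in no library of the other arm. The share of TPM in the whole class was 8.61% and 8.46% after treatment and 7.86% and 8.16% before.

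Late cultures in 2i-LIF and in FBS-LIF plus doxycycline gave few calls. Over 5 pairs of the same system, day and chemistry, 58 of 1995 members were called (2.91%, 48 higher and 10 lower in 2i-LIF), against 1.84% of all transcripts (limma, pair as a block). edgeR called 74 (3.71%), against 3.1%, and 37 were called by both. The called members had a median of 23.5 reads over the 10 libraries, and 9 had 100 or more. Leaving out a pair gave 3 (OKS day 20, R9), 8 (OKMS day 14, R9), 16 (OKMS day 20, R9, and OKS day 18, R10) and 18 (OKMS day 18, R10), and the R10 pairs alone gave 0 limma calls with 462 members at an unadjusted p under 0.05. The R9 pairs alone gave 55 calls (34 higher and 21 lower), of which only 7 were among the 58. The share of TPM in the class differed by 0.0992 points between the media, lower in 2i-LIF in 3 of 5 pairs (exact sign-flip permutation p = 0.875, smallest possible 0.0625, adjusted p = 0.875), and by -0.174 without the OKS day 20 pair.

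S100a6.G33261.103 was the best-read call. It has 4 exons and a new acceptor at -583 bases from the nearest annotated one, printed above, and it keeps the whole coding sequence of 267 bases. In 2i-LIF it had 55.3 (OKMS day 14), 231 (OKMS day 20), 142 (OKS day 20), 41.4 (OKMS day 18, R10) and 133 TPM (OKS day 18, R10). The FBS-LIF partners had 7074, 3665, 3257, 1336 and 2956 TPM, higher in 5 of 5 pairs (-4.98 ± 0.34, limma adjusted p = 0.000519). The gene moved with it, at 101 CPM against 2549 CPM.

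Rbbp7.G57006.283, from the gene of a histone-binding protein, was at 0 in the 3 R9 libraries in 2i-LIF and at 83.7 and 129 TPM in R10, against 132 to 479 TPM in FBS-LIF (-5.56 ± 1.23, limma adjusted p = 0.0478). The gene measured 290 CPM and 429 CPM. Calls on few reads included Lsr.G46043.178, from a lipoprotein receptor gene, with 0 reads in 2i-LIF and 3 to 9 reads per library in FBS-LIF, and Fam25c.G15839.22, with 3 to 6 reads per library in 2i-LIF and 0 in FBS-LIF. Tmsb4x.G57083.234, from the thymosin beta 4 gene on the X chromosome, had 0 to 2.84 TPM in 2i-LIF and 11.8 to 31.7 TPM in FBS-LIF.

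The R9 time course compared days 2 to 20 in FBS-LIF plus doxycycline with day 0 in both systems, so the factors, the medium and the drug cannot be told apart. Of 10233 members tested 67 were called (0.655%, 12 higher and 55 lower at the day of the largest difference), against 0.129% of all transcripts (limma moderated F test, system as a term). edgeR called 381 (3.72%), against 1.59%, with 60 called by both. Leaving out both libraries of a day gave 12 (day 20), 18 (day 6), 24 (day 4), 32 (day 2), 34 (day 14) and 74 (day 10). Transcripts of 2 exons were 55.2% of the called members and 23.7% of those tested.

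Most falls reached 0 by day 2. Of the 55 lower members, in 53 genes, 47 were listed at 0 reads in all 12 later libraries, and all 55 had reads in both day 0 libraries. Those 47 could pass the minimum of 1 TPM in 2 libraries only through both day 0 libraries, so their direction was fixed by the filter. Of the 51 lower members tested in R10, 41 were also called lower in R10 stem cells. Among all 1269 members tested in both fits and with reads in both day 0 libraries, 41.8% were. For the 828 of them with 5 or more day 0 reads the share was 47.5%. Day 0 reads were few, with a median of 20 and a range of 5 to 437 over both libraries. Scd2.G26940.315, from a fatty acid desaturase gene, had 964 TPM (OKMS) and 1206 TPM (OKS) at day 0 and 0 in the 12 later libraries (-10.08, limma adjusted p = 0.00241). The gene fell to 54.2 to 215 CPM from 1189 CPM and 978 CPM. Scarb1.G41104.46 had 473 TPM (OKMS) and 409 TPM (OKS) at day 0 and 0 later.

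Other transcripts were listed at 0 later although their genes kept reads. The Laptm4a and Sar1a transcripts are among those described below under presence and absence. Laptm4a.G10572.463, from a lysosomal membrane protein gene, had 356 TPM (OKMS) and 394 TPM (OKS) at day 0 and 0 in every later library (-8.55, limma adjusted p = 0.00678). The Laptm4a gene had 644 CPM and 526 CPM at day 0 and 240 to 1959 CPM later, so that it was higher than at day 0 in some later libraries without the transcript. Sar1a.G4820.324, from a GTPase of vesicle coats, had 193 and 312 TPM and then 0, with the gene at 241 and 295 CPM and then 138 to 253 CPM. Gorasp2.G28943.26, from a Golgi stacking protein gene, had 204 and 292 TPM and then 0, with the gene at 94.2 to 226 CPM later. Stpg4.G23874.8 had 178 and 290 TPM and then 0 except 4.07 TPM (1 read) at OKMS day 14, and its gene fell with it.

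The 12 higher members came from 8 genes. S100a6.G33261.103 had 12.5 TPM (OKMS) and 8.38 TPM (OKS) at day 0 and 3948, 6977, 6067, 4431, 7074 and 3665 TPM in OKMS at days 2, 4, 6, 10, 14 and 20. In OKS it had 2658, 5228, 7562, 6286, 24831 and 3257 TPM on those days. Both systems were above day 0 on every later day, most at day 14 (10.2, limma adjusted p = 0.000779), and the gene followed, from 2.69 and 10.1 CPM to between 1850 and 14014 CPM. The OKS day 14 library was the highest of the 14.

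Slc43a2.G8244.473 was present at day 2 only, with 132 TPM (OKMS) and 343 TPM (OKS), while the gene kept 6.16 to 84.9 CPM on later days. Atp5k.G40315.29, from the gene of ATP synthase subunit e and with an intact coding sequence of 213 bases, had 439 (OKMS) and 737 TPM (OKS) at day 10 and 756 and 476 TPM at day 20. It was at 0 in both systems at days 0, 4, 6 and 14, and at day 2 OKS had 27.7 TPM. The gene stayed between 373 and 700 CPM in all 14 libraries. In R10 this transcript was at 0 in OKMS at days 2, 4, 6, 10 and 18, where 20 or more reads were expected. Gm46332.G10500.2, of a lincRNA gene, appeared late, at 9.59, 97.6 and 181 TPM in OKMS and 17.7, 13.3 and 123 TPM in OKS at days 10, 14 and 20.

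**Figure D4:**
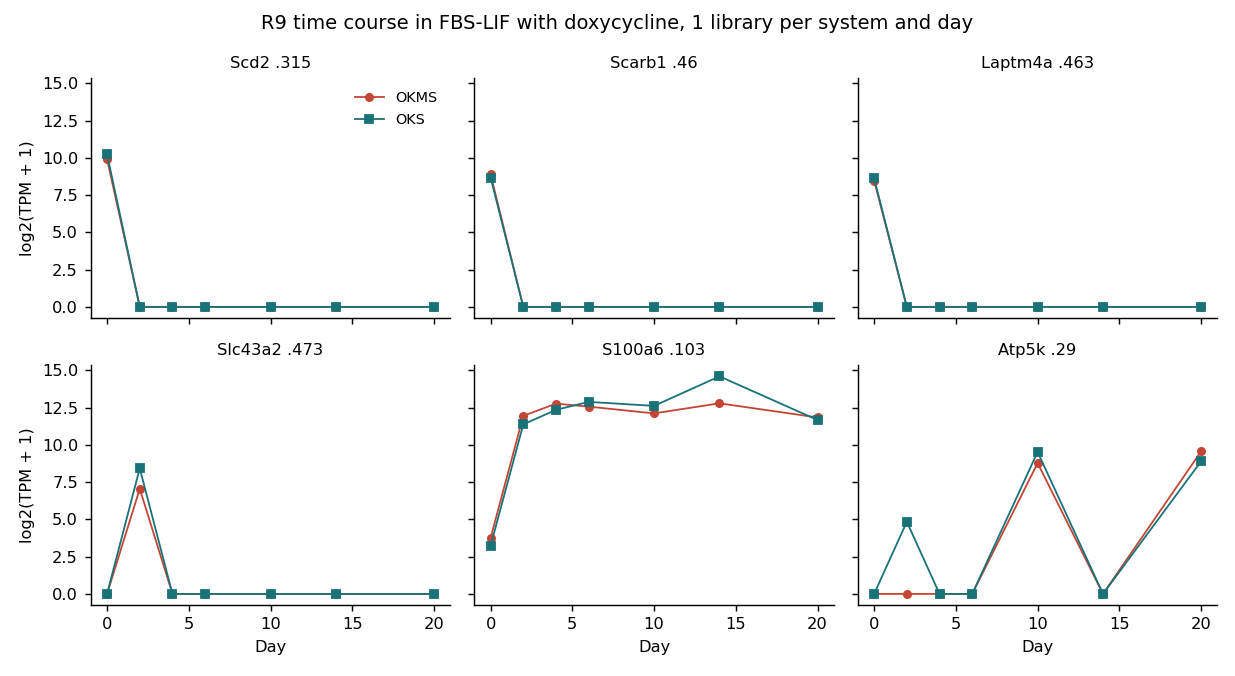
Lines join log2(TPM + 1) (y axis) of 6 named transcripts in the R9 libraries by day (x axis), with 1 library per system and day. Scd2, Scarb1 and Laptm4a are at 0 from day 2 on, Slc43a2 is present at day 2 only, S100a6 is high from day 2, and Atp5k is present at days 10 and 20 and at 0 at day 14.

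The share of TPM in the class was highest at day 0 in both systems. OKMS had 8.99% at day 0 and then 6.94%, 7.85%, 7.32%, 6.88%, 7.12% and 7.38%. OKS had 11.0% and then 9.03%, 8.48%, 9.0%, 7.62%, 9.46% and 6.83%. With 1 library per system and day these values have no replicate error. At OKS day 14 the transcripts with an intact coding sequence, S100a6 among them, took 4.65% of TPM, against 2.34% to 2.93% in the other OKS libraries.

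The pattern of presence and absence was described over the members with at least 450 reads in all libraries together. Reads expected in a library were the gene's reads there times the member's share of gene reads where it was present. Of 375 such members 154 (41.1%) were listed at 0 in at least 1 library where 20 or more reads were expected. The share was 78.8% for 2 exons (108 of 137), 32.1% for 3 exons (26 of 81) and 12.7% for 4 or more (20 of 157). With an intact coding sequence it was 8.47% (5 of 59). For coding new-site transcripts it was 11.5% (136 of 1182), but 73.8% for those of 2 exons (31 of 42), and for full-splice matches 2.12% (116 of 5469).

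Rae1.G31561.181 is the plainest case, with reads in 8 libraries and 0 in 34 where 20 or more were expected. R9 and R10 libraries of the same condition had the same presence or absence in 1778 of 1848 comparisons of these 154 members (96.2%, between 92.9% and 98.7% by condition). OKMS and OKS on the same R9 day had the same in 726 of 1078 (67.3%, 60.4% to 98.1% by day). Neighbouring days of a system had the same in 1416 of 1848 (76.6%, 42.2% to 98.1% by pair), and 2i-LIF and FBS-LIF pairs in 589 of 770 (76.5%, 57.8% to 98.1%). Some pairs of different conditions therefore matched as closely as the chemistries did. Of the 47 transcripts with at least 450 reads that were named for a difference, a share or a level, 30 were of this kind. They include those plotted for the R10 stem cell comparison from Serpine2, Map3k7, Otub1, Rae1, Eif4g2, Hmgcs1, Ung, Tubb5, Txn1, Cdk2ap2 and Pias2. In the time course they include those of Scd2, Scarb1, Laptm4a, Sar1a and Slc43a2, and Atp5k.G40315.29. For the treated WT progenitors they include those of Scarb1, Etv4, Ywhab, Otub1, Eif4g2, Eif4ebp1, Slc43a2, Qsox1, Ctsl and Mlc1. Transcripts named only for a gene list were left out of both counts. Among these, the named transcripts of Upf1, Ptbp1 and Hnrnpl were also of this kind. Whether the authors built transcript models per condition or over all libraries is not given in the sources used here, and its part in these zeros was not tested.

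**Figure D5:**
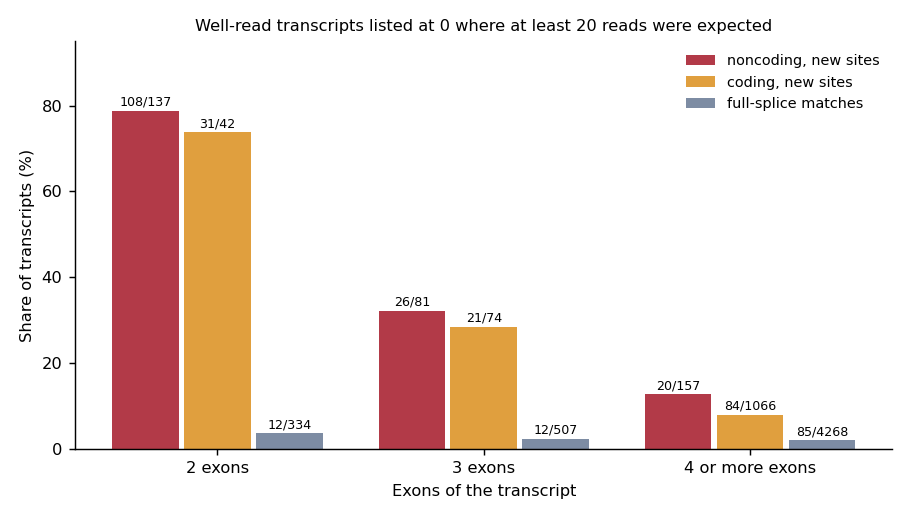
Bars give the share of transcripts with at least 450 reads (y axis, %) that are listed at 0 in a library where at least 20 reads were expected, by number of exons (x axis) and class (colour), with counts above each bar. Among transcripts of 2 exons the share is 78.8% for noncoding and 73.8% for coding new-site transcripts, and full-splice matches are at 2.12% over all exon numbers.

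Across chemistries, the class took a lower share of TPM in R10 than in R9 in 9 of 12 conditions. The mean difference was -0.876 points and did not pass after adjustment (exact sign-flip permutation p = 0.0371, adjusted p = 0.0742). It passed without untreated OKMS (-1.06, adjusted p = 0.0195) and without OKMS day 10 (-1.0, adjusted p = 0.0469) in the same test, and without Serpine2.G1307.409 (-1.19, adjusted p = 0.0127). The widest differences were in the stem cell conditions R1 (-3.63) and O4G (-2.74), whose R10 libraries mostly carry an n number. The part of that library set in the mean difference was not tested.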

How the data were processed

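Gene values were CPM and transcript values TPM, both deposited by the authors in tables named after IsoQuant. The submitters' processing notes name minimap2 2.24-r1122 and mm10. The deposited classification has, per the file headers, SQANTI3's columns, including a percent of A bases downstream of the 3′ end, which was not used. CPM values, and TPM times transcript length, were whole multiples of a library step within 0.02 reads (100% of values above 0), which gave whole reads. The gene table held 13 columns that matched no sample and were not used. New sites, coding sequences and bases came from GENCODE M21 (GRCm38).

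Members, lists and tests were chosen with earlier results of these data known. Every transcript with at least 1 TPM in as many libraries as the smaller arm entered limma 3.58.1 (lmFit, eBayes with trend, R 4.3.3) on log2(TPM + 1), and Benjamini-Hochberg adjustment ran over all of them. This scale makes the differences of low transcripts look smaller than they are. Calls needed an adjusted p under 0.05 and an absolute log2 difference of at least 1. Gene totals were tested in the same way. Shares were fitted by limma as untransformed percentages without the trend, leaving genes whose share did not vary out of the adjustment. Their calls needed an adjusted p under 0.05 and a difference of at least 10 percentage points. All tests were two-sided. edgeR 4.0.16 (quasi-likelihood test) was run on the recovered reads as an alternative chosen after seeing the data. Named transcripts were up to 6 with the widest difference in each direction per comparison where arms did not overlap, up to 8 genes per direction for shares, the 10 highest dominated genes per arm, the 10 highest transcripts, and up to 3 per gene list. On data simulated for the R10 stem cell comparison 98.5% of 200 transcripts changed 4-fold were recovered among 63007 tested, with 41 false calls. For R9 it was 14.5% among 82070, with 0 false calls. Only well-read transcripts were changed in the simulation, whereas tested R10 members had a median of 21 reads over the libraries of that fit. The simulation also gave every transcript the same fixed dispersion between libraries and added no all-or-none zeros. The recovery and the false calls do not carry over to members with few reads, a wider spread or such zeros. For the treated WT progenitors 0 of 200 were recovered at 4-fold and 26.5% at 16-fold. Whether counting used strand is not given in the sources used here, so members that overlap or run antisense to another gene are uncertain.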

Additional observations from a re-analysis of the deposited data

Results flagged for a closer look

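In 45 groups of 4 to 10 libraries of named values, 10 had a highest or lowest library set apart by Dixon's test at 95%. Chance alone sets apart about 1 group in 20. Among the 7 R10 stem cell libraries the share of TPM in the class was highest at 6.63%, in the R1 library with replicate number 3. The same library had the lowest Ung.G40540.111 (170 TPM), Pias2.G25514.318 (30.2 TPM) and Txn1.G35623.141 (34.8 TPM), the highest Cdk2ap2.G25790.35 (451 TPM) and the lowest member share of Ung (77.3%). An O4G library had the highest member share of Hdgf among them (15.1%). Among the 4 R9 progenitor libraries the OKS library had the highest class share (11.0%), and Fam25c.G15839.20 was highest at 3.19 TPM in a WT library, a single read. In R10 progenitors the same transcript was highest at 0.949 TPM, also a single read in a WT library.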

How the results depend on the processing

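Alternatives were a pseudocount of 0.25, other minimum levels, 2 other scalings, edgeR, single library sets, the other chemistry, and leaving out each library, pair or day. edgeR, the CAGE restriction, the use of all reads of a gene, the mean share for dominated genes and leaving out Serpine2.G1307.409 were chosen after seeing the data. With a minimum of 5 TPM the members called were 886 (R10 stem cells against progenitors), 698 (R9), 570 (treated WT progenitors) and 34 (media). Without a filter the treated progenitors gave 166 and the media 13, and a pseudocount of 0.25 gave 15 in the time course. Median centring gave 723 in R9 and 473 in the treated progenitors. edgeR gave 236, 198 and 381 in R9, the treated progenitors and the time course. Restricted to transcripts that start in a CAGE peak, 723 remained in R9 and 29 in the time course. The R9 libraries in place of R10 gave 1175 members and 108 genes with a changed share (66 gains and 42 losses). A single library set gave 93 genes (84 gains and 9 losses), and all reads of the gene 91. The R10 media pairs alone gave 0 and the R9 pairs 55, with 7 shared with the 58.

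Leave-one-out counts ran from 1986 to 2160 (R10), 1244 to 2086 (R9), 0 to 1830 (treated progenitors), 3 to 18 (media), 12 to 74 (time course) and 201 to 338 (genes with a changed share). The class share differed by -3.5 to -2.74 points (R10), by -1.07 to -0.000645 (R9), by -0.174 to 0.229 (media; reversed without the OKS day 20 pair) and by -1.06 to -0.626 (R10 minus R9, past the threshold at -1.06 without untreated OKMS and at -1.0 without OKMS day 10). Within a single R10 library set it was -1.38. Without Serpine2.G1307.409 it was -1.66 in R10, 0.158 in R9 (reversed) and -1.19 for R10 minus R9 (past the threshold). The causes were not tested.

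The treated and untreated WT progenitors share replicate numbers 2 and 3. With a replicate block 2091 members were called, against 1359 without it, and same-numbered libraries correlated at 0.193 in their deviations, over 2 pairs that share only a number. No named transcript or gene changed direction under any alternative run. Most were chosen for wide differences, many with 0 in an arm, so their direction could hardly turn and this is no further support. Named calls were lost most often in the media (29 values outside leave-one-out) and in all 12 leave-one-out results of the treated progenitors.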
